A study of Mus musculus with 36 samples.

Results

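The genes described here are Mdm2, 5 genes that lie near it on mouse chromosome 10 (Slc35e3, Nup107, Cpm, Cpsf6 and Yeats4) and Mdm4, the paralog of Mdm2 on chromosome 1. They were chosen by symbol, for the very high level of Mdm2 in these data, and make up 7 of the 52505 genes in the expression table. All 7 were found, and all 7 averaged 1 FPKM or more (fragments per kilobase of gene and per unit of sequencing depth). Very high expression, taken here as a mean of at least 1000 FPKM, held for 2 of the 7, Mdm2 and Slc35e3. The other members, Mdm4, Cpsf6, Nup107, Yeats4 and Cpm, had means over all libraries of 62.4, 45.8, 34.8, 20.7 and 3.65 FPKM. These levels are what the genes were chosen for, so they are given as a description.

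The total RNA came from the mouse fibroblast line 3T3-L1, whose cells can become fat cells in culture. The 12 libraries form 4 groups of n = 3: KO-labelled day 0, WT day 0, KO-labelled day 2 and WT day 2, where KO stands for knockout of the zinc finger gene Zfp217 and WT for wild type. All groups carry the same growth and MDI treatment label, and day counts from the start of MDI, which here held dexamethasone, isobutyl-methylxanthine, insulin and indometacin. The labels give neither the clone status of the KO-labelled cells nor the cultures behind the libraries. The p-values therefore reflect spread among these libraries alone, and that spread may be technical.

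The MDM2 protein is a ubiquitin ligase that binds the tumour suppressor p53, blocks its activity and marks it for destruction, while p53 in turn switches on the Mdm2 gene. MDM4 binds p53 as well, has little ligase activity of its own and works as a partner of MDM2. The name Mdm2 comes from mouse double minute, because the gene was found on the small extra chromosomes of a transformed 3T3 line. Gene copy number was not measured in the files used here. The neighbours of Mdm2 have unrelated roles. Slc35e3 is an orphan member of the nucleotide sugar transporter family, Nup107 is a scaffold protein of the nuclear pore, Cpm is a carboxypeptidase anchored to the cell surface, Cpsf6 is a subunit of cleavage factor I that guides the choice of messenger RNA 3′ ends, and Yeats4 is a reader of acylated histones in chromatin complexes.

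The promoter sequences of Mdm2 and of the next 2 genes upstream of it, Slc35e3 and Nup107, are shown because the high level ends between the last 2. They run 5′ to 3′ on the minus strand, the strand of all 3 genes, from 250 bases before to 50 bases after the start used in the promoter table. For Nup107 that start lies within the gene span given further on, and for Mdm2 and Slc35e3 it is the end of that span. They are taken from RefSeq on GRCm38.p6, at chr10:117710709-117711008 for Mdm2, chr10:117746309-117746608 for Slc35e3 and chr10:117792656-117792955 for Nup107. Capitals mark 3 motifs, searched on both strands. They are the GC box, spelled GGGCGG, the CCAAT box, spelled as it is named, and the E-box, spelled CACGTG.
Mdm2: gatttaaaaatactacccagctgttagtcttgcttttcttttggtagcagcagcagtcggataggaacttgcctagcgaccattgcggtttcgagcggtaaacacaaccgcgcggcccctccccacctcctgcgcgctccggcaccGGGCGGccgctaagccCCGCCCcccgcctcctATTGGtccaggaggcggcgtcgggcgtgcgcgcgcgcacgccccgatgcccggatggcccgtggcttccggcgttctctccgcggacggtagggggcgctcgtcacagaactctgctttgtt
Slc35e3: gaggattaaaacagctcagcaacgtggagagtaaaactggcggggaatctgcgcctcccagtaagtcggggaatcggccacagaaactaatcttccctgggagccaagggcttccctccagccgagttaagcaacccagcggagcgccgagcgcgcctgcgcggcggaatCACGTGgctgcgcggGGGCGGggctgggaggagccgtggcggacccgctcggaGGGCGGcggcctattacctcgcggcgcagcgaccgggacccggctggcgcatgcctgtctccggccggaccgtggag
Nup107: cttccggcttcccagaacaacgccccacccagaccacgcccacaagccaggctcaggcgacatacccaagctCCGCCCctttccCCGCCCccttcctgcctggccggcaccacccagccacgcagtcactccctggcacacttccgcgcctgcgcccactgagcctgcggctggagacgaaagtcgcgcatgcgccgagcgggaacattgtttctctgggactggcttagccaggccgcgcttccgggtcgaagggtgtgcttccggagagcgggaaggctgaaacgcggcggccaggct

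Each of the 3 promoters held 2 GC boxes, a motif present in 35.7% of the 32851 mouse promoters of this length in the table. Mdm2 alone among the 3 held a CCAAT box, which 37.4% of all promoters hold, and Slc35e3 alone held the E-box, which 7.15% hold. No match overlapped another. The GC content was 64.7% for Mdm2, 68.0% for Slc35e3 and 68.0% for Nup107, against a median of 52.7% over all promoters. The level of Nup107 was far lower than that of the other 2. Whether any of the motifs bears on the levels was not tested. All 7 members matched the table, with 2 starts listed for Mdm4, and Mdm4 held none of the 3 motifs at either start. Cpm, the member of lowest level, held 6 GC boxes, Cpsf6 held 2, and Yeats4 held 2 with 1 CCAAT box.

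The whole series sets the following limits. Library totals implied by the FPKM steps were between 18075127 and 23117459 reads, and Pearson's r across genes was 0.992 to 0.996 within groups and 0.786 to 0.92 between groups. Zfp217 was not lower in the libraries labelled KO, at 25.2 to 26.9 FPKM at day 0, against 21.7 to 22.3 in WT, and at 21.7 to 23.4 at day 2, against 14.6 to 15.3 in WT. A message that is not lower does not bear out the label, though an edit that shifts the reading frame need not change a gene's FPKM. Each direction given here is therefore one between libraries as labelled. All 8 fibroblast markers were at 1 FPKM or more in every group, and no listed endothelial, epithelial or skeletal muscle marker was. The fibroblast markers summed to 27813 to 28509 FPKM in KO-labelled day 0, 10606 to 10915 in WT day 0, 8468 to 8783 in KO-labelled day 2 and 1476 to 1509 in WT day 2. The summed level of 7 adipocyte markers was 190 to 201 FPKM in KO-labelled day 0, 56.1 to 60.4 in WT day 0, 330 to 344 in KO-labelled day 2 and 8155.5 to 8343.9 in WT day 2, so fibroblast and fat cell markers both differ between the 4 groups beside every result given here, and their part in those results was not tested. In the mitochondrial ribosomal RNA mt-Rnr1, WT day 0 replicate 3 was unlike its group, at 264 FPKM against 5.87 in the lowest library of that group. The KO-labelled day 0 libraries were all high in it, at 379 to 396 FPKM. It was at 13.5 to 17.2 FPKM in KO-labelled day 2 and 15.6 to 19.9 in WT day 2. This RNA thus differed between genotypes at day 0 (log2 change 4.00, limma adjusted p = 0.00359), and its part in the results was not tested. Without WT day 0 replicate 3, 5 members were called between genotypes at day 0, as with it. Leaving out that library does not remove the difference between the day 0 groups. In bulk RNA, fewer cells expressing a gene and less RNA per cell cannot be told apart.

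Mdm2 (ENSMUSG00000020184, chr10:117688875-117710758 on GRCm38.p6, minus strand) was among the most abundant messages of these cells. It was at 3103, 3029 and 3083 FPKM in the KO-labelled day 0 libraries and at 2727, 2751 and 2740.2 FPKM in WT day 0. At day 2 it was at 3562, 3534 and 3462 FPKM in the KO-labelled libraries and at 4253, 4249 and 4321 FPKM in WT. No group overlapped another, and the order was WT day 2, KO-labelled day 2, KO-labelled day 0 and WT day 0 from high to low. Reads behind these values ranged from 94511 to 165659 per library, so Mdm2 alone took 0.459% to 0.728% of the implied library totals. These totals are close to the sums of reads recovered over genes, so reads outside genes are not counted in them.

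Ranked among all genes above 0 in a library, Mdm2 was 15th to 16th in KO-labelled day 0, 14th to 17th in WT day 0, 8th to 10th in KO-labelled day 2 and 6th in all 3 WT day 2 libraries. By its mean over the 12 libraries, 3401 FPKM, it was 7th. The genes above it were the translation elongation factor Eef1a1 (5899 FPKM), the mitochondrial genes mt-Nd1 (5722), mt-Co1 (5678) and mt-Cytb (5203), the collagen gene Col1a1 (3867) and the ribosomal protein gene Rplp1 (3862). Just behind it were mt-Nd2 (3311 FPKM), the chaperone gene Hsp90ab1 (3306) and the ferritin gene Fth1 (3183). Every other gene in these first 10 codes for a protein of translation, respiration, matrix, folding or iron storage. Mdm2 is the regulator of p53 among them.

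Slc35e3 (ENSMUSG00000060181, chr10:117733678-117746358, minus strand) is the next protein-coding gene upstream, 22919 bases from Mdm2. It was at 1460.4, 1523 and 1516 FPKM in KO-labelled day 0 and at 1363, 1791 and 1777 FPKM in WT day 0. In KO-labelled day 2 it was at 1246, 1592 and 1629 FPKM, against 1703, 1787 and 2386 FPKM in WT day 2. The WT day 2 libraries lay above all KO-labelled day 2 libraries, and at day 0 the genotypes overlapped. Its mean of 1648 FPKM put it 34th of all genes, and its rank within a library ran from 15 to 64. Mdm2 stood at 2.05 ± 0.0666 times the Slc35e3 level in KO-labelled day 0, 1.69 ± 0.266 in WT day 0, 2.4 ± 0.398 in KO-labelled day 2 and 2.23 ± 0.369 in WT day 2 (SD, n = 3 each).

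The libraries of a group differed far more in Slc35e3 than in Mdm2. The coefficient of variation of Slc35e3 was 2.28% in KO-labelled day 0, 14.8% in WT day 0, 14.2% in KO-labelled day 2 and 19% in WT day 2, where counting error alone gives 0.342% to 0.399%. For Mdm2 it was 1.25%, 0.443%, 1.46% and 0.946% in the same groups. Over the 1263 genes that averaged 100 FPKM or more, the pooled within-group SD on the log2 scale had a median of 0.036. Slc35e3, at 0.204, had the 46th largest, and Mdm2, at 0.016, the 1231st. Of the 45 genes with a larger SD, 21 were predicted genes or pseudogenes and 7 were mitochondrial. The library numbered 1 was the lowest for Slc35e3 in all 4 groups, a pattern seen after the values were known.

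**Figure D1:**
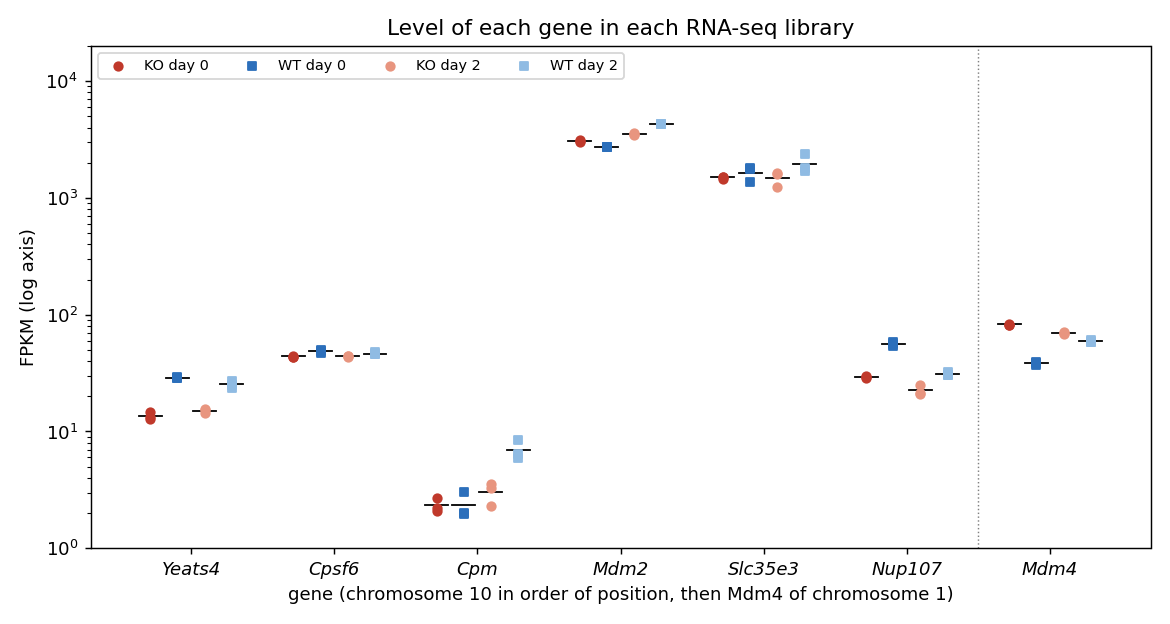
FPKM of the 7 genes in each of the 12 libraries (points) with the group means (short lines), on a log axis, for KO-labelled and WT cells at day 0 and day 2. Mdm2 and Slc35e3 sit above 1000 FPKM in every library, and the other 5 genes stay below 100 FPKM.

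The high level stopped sharply on both sides of this pair. Nup107 lies next upstream of Slc35e3, 39862 bases from Mdm2, and its mean of 34.8 FPKM was far under that of Slc35e3. Per library, Mdm2 was 103 to 105 times as high as Nup107 in KO-labelled day 0, 47.1 to 50.6 times in WT day 0, 142 to 166 times in KO-labelled day 2 and 130 to 141 times in WT day 2. On the other side, Cpm ends 1522 bases from the end of Mdm2, on the opposite strand, and its mean was 3.65 FPKM. Mdm2 exceeded Cpm 512 to 1522 times over the 12 libraries. The plot of levels along the locus shows both drops.

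**Figure D2:**
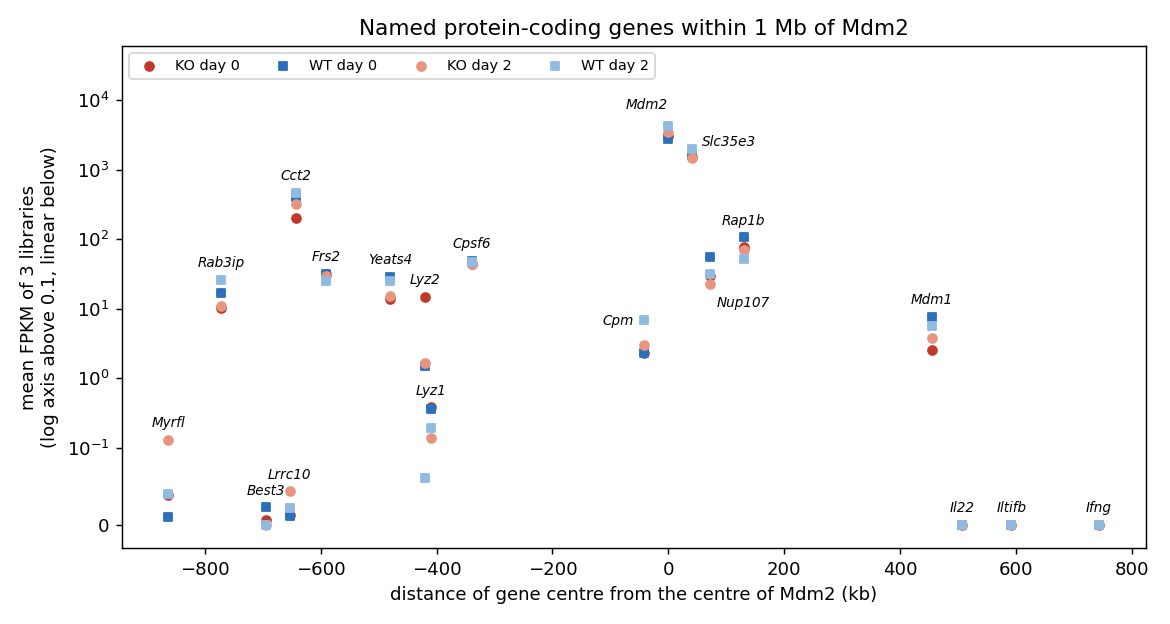
Mean FPKM of the 3 libraries of each group (log axis above 0.1, linear under it) of the named protein-coding genes within 1 Mb of Mdm2, by distance of the gene centres in kilobases. Mdm2, at 2739 to 4274 FPKM, and Slc35e3, at 1489 to 1959 FPKM, stand above Cct2, at 202 to 463 FPKM, and above the other genes of the window.

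Within 1 Mb of Mdm2 lie 19 named protein-coding genes, and Mdm2 and Slc35e3 together held 89.6% of their summed FPKM. The median of the other 17 was 4.49 FPKM. A single further gene reached a mean of 100 FPKM over the 12 libraries, the chaperonin subunit gene Cct2 at 347 FPKM, 625022 bases away. By this mean, 9 of the 19 genes were between 1 and 100 FPKM and 7 were below 1. Rap1b, among these 9, was at 104 to 108 FPKM in WT day 0. The cytokine genes Il22, Iltifb and Ifng were listed at 0 in all libraries. Myrfl, Best3, Lrrc10 and Lyz1 had means of 0.0548, 0.00743, 0.0223 and 0.268 FPKM. On the rest of chromosome 10, 6 of 952 genes averaged 1000 FPKM or more.

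Neighbouring genes that are both this high were seen once. Of 20855 protein-coding nuclear genes with a position, 69 averaged 1000 FPKM or more, and Mdm2 and Slc35e3 were the only adjacent pair of them. At 500 FPKM there were 153 such genes and 4 adjacent pairs, and at 200 FPKM there were 468 genes and 22 pairs. The members were chosen for their level, so these counts describe the pair and test nothing.

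The comparisons between groups ask how the labelled genotypes and days differ. They were made on log2(FPKM + 1) with limma over 12961 genes, with p-values adjusted over all of them and a threshold of 0.05. Log2 changes on this scale understate those of low genes such as Cpm. Comparisons share groups and are therefore not independent of each other. In KO-labelled against WT cells at day 0, 2 members were higher and 3 lower, where 82.4% of all genes tested were called, 38.3% higher and 44.2% lower. At day 2, 1 member was higher and 6 were lower, where 81.4% of all genes were called, 40.8% higher and 40.6% lower. The 6 lower members were 4 without WT day 2 replicate 3 and 5 without KO-labelled day 2 replicate 1. At day 2 against day 0 in KO-labelled cells, 2 members were higher and 2 lower, where 72.7% of all genes were called, 33.9% higher and 38.8% lower. In WT cells 3 were higher and 3 lower over time, where 80.7% were called, 34.2% higher and 46.5% lower. The change over time differed between genotypes for 5 members, 2 with a positive and 3 with a negative difference, where 73.8% of all genes were called, 40.8% positive and 33% negative. The number of members called in either direction was near these shares or, over time in KO-labelled cells, below them. By direction the count departed from them at day 2, with 6 members lower where 40.6% of all genes were. The members are few and were chosen with these data known, so no count of calls is taken as a result about them. What follows is the size and direction of each change. The median log2 change of all genes was -0.059 between genotypes at day 0 and 0 at day 2, and over time it was -0.031 in KO-labelled cells and -0.113 in WT cells.

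Mdm2 was 1.12-fold the WT level in KO-labelled cells at day 0 (log2 change 0.17, SE 0.02, limma adjusted p = 1.69e-05). This direction did not hold under quantile normalization, where the log2 change was -0.0081 (limma adjusted p = 0.871). At day 2 it was lower in KO-labelled cells, at 0.823-fold the WT level (log2 change -0.28, SE 0.02, limma adjusted p = 1.21e-07). In KO-labelled cells it rose 1.15-fold at day 2 relative to day 0 (log2 change 0.20, limma adjusted p = 5.3e-06), and in WT cells 1.56-fold (log2 change 0.64, limma adjusted p = 4.39e-11). The difference between these time courses was -0.45 on the log2 scale (SE 0.03, limma adjusted p = 6.66e-08), with the smaller rise in KO-labelled cells.

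Slc35e3 passed the test in 1 of the 5 comparisons. At day 0 its log2 change between KO-labelled and WT cells was -0.12 (SE 0.14, limma adjusted p = 0.442), and it was 0.0538 under quantile normalization. At day 2 it was lower in KO-labelled cells, with a log2 change of -0.39 (SE 0.14, limma adjusted p = 0.0244). That call rests on single libraries. Without WT day 2 replicate 3 the log2 change was -0.24 (limma adjusted p = 0.111), and without KO-labelled day 2 replicate 1 it was -0.27 (limma adjusted p = 0.109). With no filter on low genes the adjusted p was 0.0634. Over time the log2 change was -0.02 in KO-labelled cells (limma adjusted p = 0.904) and 0.25 in WT (limma adjusted p = 0.129). Without WT day 2 replicate 3 the WT value was 0.10 (limma adjusted p = 0.506), and without WT day 0 replicate 1 it was 0.12 (limma adjusted p = 0.456). The WT value passed under median-of-ratios scaling (0.35, limma adjusted p = 0.0395), quantile normalization (0.46, limma adjusted p = 0.0157) and with a replicate block (0.25, limma adjusted p = 0.0312). The difference between the time courses was -0.27 (limma adjusted p = 0.247). That difference passed under quantile normalization (-0.67, limma adjusted p = 0.0154).

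Mdm4 (ENSMUSG00000054387, chr1:132986105-133030587, minus strand) had the largest log2 change of the 7 genes between genotypes at day 0. It was at 83.5, 82.1 and 82.0 FPKM in KO-labelled day 0, against 37.1, 38.6 and 39.3 FPKM in WT day 0. In KO-labelled day 2 it was at 71.4, 69.4 and 68.5 FPKM, against 57.9, 58.6 and 61.1 FPKM in WT day 2. No group overlapped another, with KO-labelled day 0 the highest and WT day 0 the lowest. It was 2.13-fold the WT level at day 0 (log2 change 1.09, limma adjusted p = 7.56e-12) and 1.18-fold at day 2 (0.23, limma adjusted p = 1.08e-05). Over time it fell in KO-labelled cells (log2 change -0.24, limma adjusted p = 1.28e-05) and rose in WT (0.61, limma adjusted p = 1.12e-09), and the difference of these changes was -0.85 (limma adjusted p = 2.64e-09).

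Because MDM2 and MDM4 work together on p53, the level of Mdm2 was set against that of Mdm4 in each library. The ratio was 36.9 to 37.6 in KO-labelled day 0 and 69.8 to 73.6 in WT day 0. It was 49.9 to 50.9 in KO-labelled day 2 and 70.7 to 73.5 in WT day 2. The KO-labelled libraries lay below all WT libraries at each day, and the WT libraries of the 2 days overlapped. The mean log2 ratio was 5.22 in KO-labelled and 6.16 in WT cells at day 0, a difference of -0.94, and it was 5.66 in KO-labelled and 6.17 in WT cells at day 2, a difference of -0.52. The 2-sided exact permutation p was 0.1 at each day, also after adjustment over the 2 days, and 0.1 is the smallest that 3 libraries against 3 can give. Trp53, which encodes p53, was at 42.2 to 43.7 FPKM in KO-labelled day 0, 98.7 to 102 in WT day 0, 44.5 to 47.8 in KO-labelled day 2 and 37.6 to 40.3 in WT day 2. Mdm2 thus stood at 70.5 to 73.2 times the Trp53 level in KO-labelled day 0, 26.8 to 27.8 in WT day 0, 74.4 to 78.4 in KO-labelled day 2 and 106 to 115 in WT day 2.

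**Figure D3:**
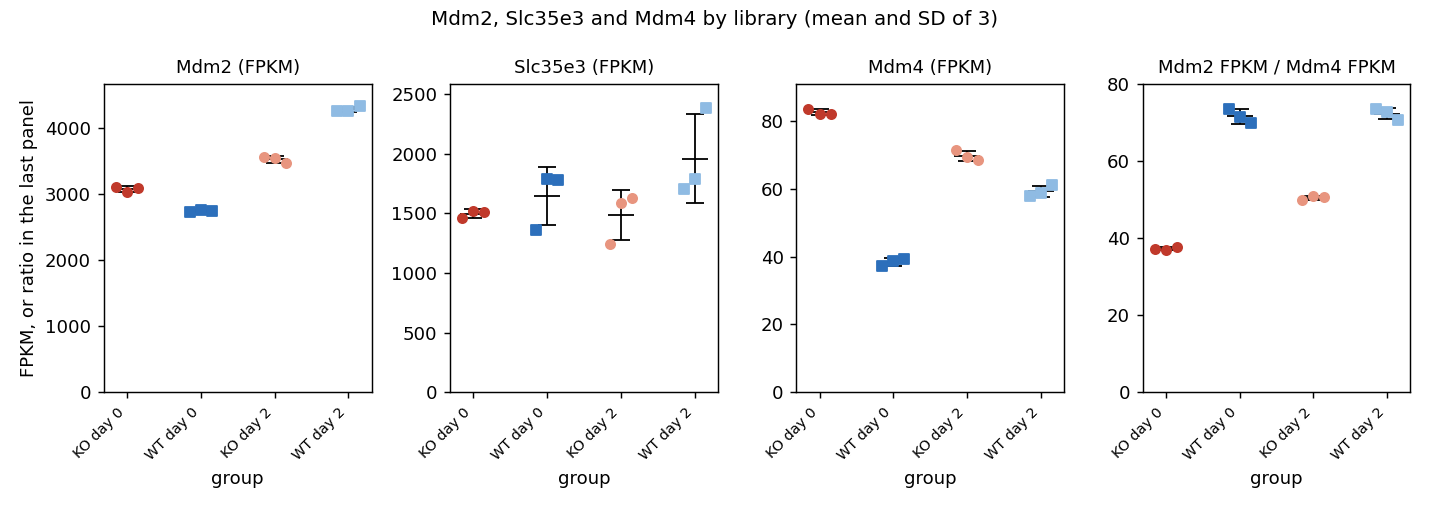
Levels of Mdm2, Slc35e3 and Mdm4 in FPKM and the ratio of Mdm2 to Mdm4, for each library (points), with the mean and SD of each group (lines) and KO-labelled cells left of WT cells at each day. The ratio is 36.9 to 37.6 in KO-labelled day 0, 69.8 to 73.6 in WT day 0, 49.9 to 50.9 in KO-labelled day 2 and 70.7 to 73.5 in WT day 2.

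Nup107 (ENSMUSG00000052798, chr10:117750621-117792736, minus strand) was lower in KO-labelled cells at both days. It was at 29.5, 28.9 and 29.9 FPKM in KO-labelled day 0, against 55.9, 54.3 and 58.2 FPKM in WT day 0, and at 21.4, 24.9 and 21.0 FPKM in KO-labelled day 2, against 30.5, 32.6 and 30.6 FPKM in WT day 2. The genotypes did not overlap at either day. The log2 change was -0.91 at day 0 (SE 0.06, limma adjusted p = 1.52e-08) and -0.46 at day 2 (SE 0.06, limma adjusted p = 7.97e-06). It fell at day 2 relative to day 0 in KO-labelled cells (log2 change -0.38) and in WT cells (-0.82), with a difference of 0.44 (limma adjusted p = 2.97e-04).

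Yeats4 (ENSMUSG00000020171, chr10:117215141-117224507, minus strand) was also lower in KO-labelled cells. It was at 13.2, 12.9 and 14.8 FPKM in KO-labelled day 0, against 29.1, 28.5 and 28.9 FPKM in WT day 0, and at 15.5, 15.4 and 14.4 FPKM in KO-labelled day 2, against 23.6, 25 and 27.2 FPKM in WT day 2. All KO-labelled libraries lay below all WT libraries. The log2 change was -1.03 at day 0 (SE 0.06, limma adjusted p = 5.39e-09) and -0.70 at day 2 (SE 0.06, limma adjusted p = 1.84e-07). Over time the log2 change was 0.14 in KO-labelled cells (limma adjusted p = 0.0425) and -0.18 in WT (limma adjusted p = 0.00976). The WT change missed the threshold under median-of-ratios scaling (-0.09, limma adjusted p = 0.134) and quantile normalization (-0.07, limma adjusted p = 0.241). The KO-labelled change missed it under TPM (limma adjusted p = 0.143), no filter (0.082), no variance trend (0.0514), a fit to the libraries compared (0.0665) and voom on recovered reads (0.0917). It was also lost on leaving out any of 8 of the 12 libraries (limma adjusted p = 0.0539 to 0.153). These were KO-labelled day 0 replicates 1 and 2, KO-labelled day 2 replicates 1 and 2, WT day 0 replicates 1 to 3 and WT day 2 replicate 2.

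Cpsf6 (ENSMUSG00000055531, chr10:117344667-117376998, minus strand) had the narrowest range of group means among the 7 genes, relative to its level. It was at 44.5, 43.5 and 43.6 FPKM in KO-labelled day 0, against 47.2, 49.8 and 49.1 FPKM in WT day 0, and at 44.1, 43.5 and 44.2 FPKM in KO-labelled day 2, against 45.6, 46.1 and 47.8 FPKM in WT day 2. The genotypes did not overlap at either day, yet the gap was small. The log2 change was -0.15 at day 0 (limma adjusted p = 2.64e-04) and -0.08 at day 2 (limma adjusted p = 0.0159). Under TPM, values rescaled to a fixed sum per library, neither passed (limma adjusted p = 0.182 at day 0 and 0.283 at day 2). Quantile normalization gave -0.017 at day 0 (limma adjusted p = 0.575) and the opposite sign at day 2, 0.0102 (limma adjusted p = 0.737). The day 2 value also missed the threshold without WT day 2 replicate 3 (limma adjusted p = 0.0709). Over time it was 0.00 in KO-labelled cells (limma adjusted p = 0.94) and -0.07 in WT (limma adjusted p = 0.0385), a call lost without WT day 0 replicate 2 (limma adjusted p = 0.14) or 3 (0.101) and without WT day 2 replicate 1 (0.132) or 2 (0.0983). That WT call had the opposite sign under median-of-ratios scaling (0.0316, limma adjusted p = 0.269). It was lost under TPM (limma adjusted p = 0.179), quantile normalization (0.0934), no filter (0.0511), no variance trend (0.0603), a fit to the libraries compared (0.0843) and the replicate block (0.0536).

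Cpm (ENSMUSG00000020183, chr10:117629500-117687352, plus strand) was low, with 90 to 372 reads per library. It was at 2.68, 2.23 and 2.09 FPKM in KO-labelled day 0, against 1.95, 3.02 and 2.0 FPKM in WT day 0, and at 3.52, 3.26 and 2.28 FPKM in KO-labelled day 2, against 5.93, 6.41 and 8.44 FPKM in WT day 2. The WT day 2 libraries lay above all others, and the other 3 groups overlapped. At day 2 the log2 change between genotypes was -0.98 (SE 0.16, limma adjusted p = 1.19e-04), and in WT cells it rose by 1.26 at day 2 relative to day 0 (SE 0.16, limma adjusted p = 1.44e-05). At day 0 the genotypes differed by 0.02 (limma adjusted p = 0.927), and over time KO-labelled cells by 0.26 (limma adjusted p = 0.168). The KO-labelled change passed under quantile normalization (0.42, limma adjusted p = 0.0248) and without KO-labelled day 2 replicate 3 (0.40, limma adjusted p = 0.0449). The difference of the time courses was -1.0 (SE 0.23, limma adjusted p = 0.00181). Cpm and Mdm2 are transcribed towards each other, and whether reads running past the end of Mdm2 entered the Cpm values was not tested.

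**Figure D4:**
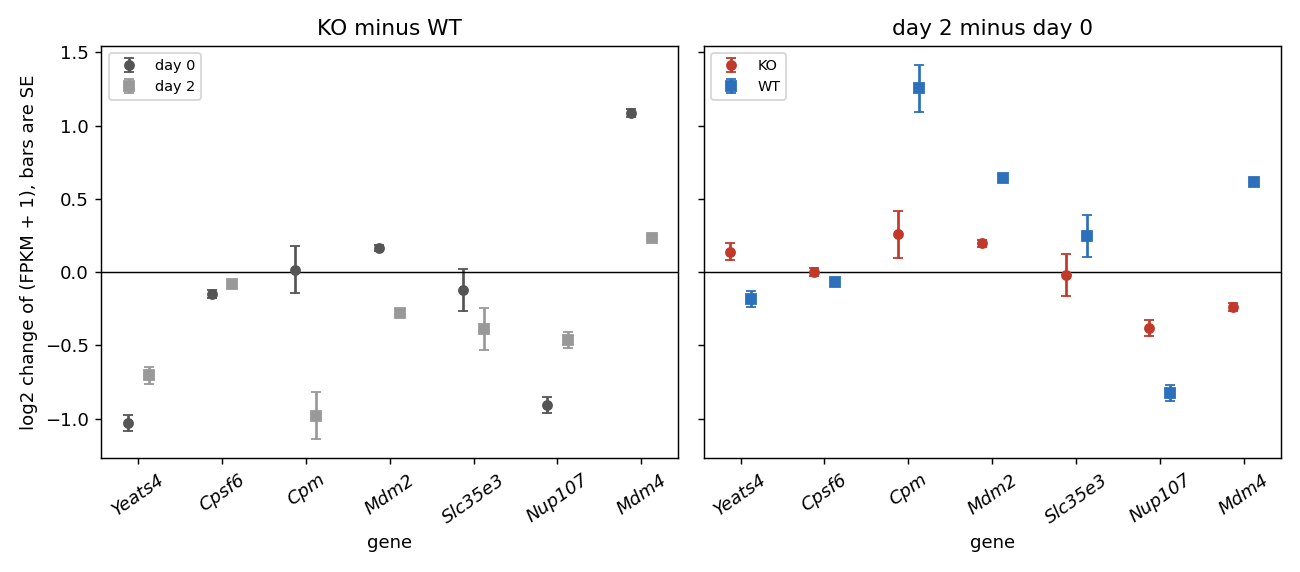
Log2 change of the 7 genes in log2(FPKM + 1), with its standard error, for KO-labelled minus WT cells at each day and for day 2 minus day 0 in each genotype. Mdm4 is the highest at day 0 between genotypes, at 1.09, and Yeats4 the lowest, at -1.03, while Cpm has the largest rise over time in WT, at 1.26.

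The chromosome 10 members were also set beside the rest of the window. At day 0, of the 6 members on chromosome 10, 1 was higher and 3 were lower in KO-labelled cells, and of the 6 other tested genes of the window 1 was higher and 4 were lower. Over all genes tested, 38.3% were higher and 44.2% lower at day 0. At day 2 these counts were 0 higher and 6 lower for the members, or 4 lower without WT day 2 replicate 3, and 3 higher and 3 lower for the other genes, where 40.8% of all genes were higher and 40.6% lower. Cct2 was lower in KO-labelled cells at day 0, at 195 to 207 FPKM against 396 to 402 FPKM in WT (log2 change -0.98, limma adjusted p = 3.61e-12). The small GTPase gene Rap1b, 103838 bases from Mdm2, was at 76.6 ± 2.3 FPKM in KO-labelled and 106 ± 2.14 in WT cells at day 0, and at 70.6 ± 2.9 in KO-labelled and 51.5 ± 1.3 in WT cells at day 2 (SD, n = 3 each). Its log2 changes between genotypes, -0.46 at day 0 and 0.45 at day 2, had the opposite sign to those of Mdm2 at both days, of which the day 0 sign of Mdm2 did not hold under quantile normalization. The lysozyme gene Lyz2 was at 14.6 to 14.8 FPKM in KO-labelled day 0 and 1.24 to 1.72 in WT day 0 (log2 change 2.66, limma adjusted p = 6.49e-11). It also counts among 7 macrophage markers, of which 3 were at 1 FPKM or more in each of these groups and Adgre1 was listed at 0 in both. The other 6 markers summed to 11.9 to 13.3 FPKM in KO-labelled day 0 and 10.4 to 12.1 in WT day 0, ranges that overlap. Among the markers below 1 FPKM, Csf1r, which encodes a growth factor receptor of macrophages, was at 0.0774 to 0.195 FPKM in KO-labelled day 0. It was at 0.154 to 0.227 in WT day 0, a range that overlaps. Itgam went the other way, at 0 in all WT day 0 libraries and above 0 in at least 1 KO-labelled day 0 library. Among the remaining window genes, the Rab GTPase exchange factor gene Rab3ip, the signalling adaptor gene Frs2 and Mdm1, a microtubule-binding protein gene, had day 0 log2 changes of -0.67, 0.01 and -1.29.

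Across the 12 libraries, Pearson's r of log2(FPKM + 1) with Mdm2 was 0.889 for Cpm, 0.426 for Slc35e3, 0.352 for Mdm4, 0.015 for Yeats4, -0.219 for Cpsf6 and -0.577 for Nup107. Ranked by r among 12960 genes, Cpm was 698th and Slc35e3 3314th. The other tested genes of the window ran from 0.517 for Rab3ip to -0.898 for Frs2 and -0.964 for Rap1b. The libraries fall into the 4 groups, so r largely describes group means, and it is given with no test. The 5 genes whose pattern was most like that of Mdm2 were Sipa1l1 (r = 0.997), Mocs2, Tent4b, Chpt1 and Gnpat (r = 0.996 each), of which Chpt1 alone lies on chromosome 10. Their levels were far lower, for instance 18.8 FPKM for Sipa1l1 in KO-labelled day 0, 15.5 in WT day 0, 25.6 in KO-labelled day 2 and 37.2 in WT day 2.

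The other genes of each pathway give the setting. Over all genes tested, 38.3% were higher and 44.2% lower in KO-labelled cells at day 0 (median log2 change -0.059), and 40.8% were higher and 40.6% lower at day 2 (median 0). Of 26 regulators of p53, all tested, 7 were higher and 18 lower in KO-labelled cells at day 0, with a median log2 change of -0.292, and 7 were higher and 11 lower at day 2. Mdm2 had the highest level among them, followed by the ribosomal protein gene Rpl11 at 1075 FPKM. Mdm4 and the deubiquitinase gene Usp2 (log2 change 1.05) had the largest rises at day 0, and the checkpoint kinase genes Chek1 (-2.07) and Chek2 (-1.26) the largest falls. Trp53 itself was lower at day 0 (-1.21) and higher at day 2 (0.24). Of 28 known targets of p53, 26 were tested, and 17 were higher and 9 lower at day 0 (median 0.458), and 18 were higher and 7 lower at day 2 (median 0.515). The receptor gene Eda2r was at 118 FPKM in KO-labelled and 8.84 in WT cells at day 0 (log2 change 3.60), and Cdkn1a, which encodes the p21 inhibitor of cyclin kinases, at 319 in KO-labelled and 74.5 in WT cells (2.08). Pidd1 (-1.41) and the kinase gene Plk2 (-1.19) were lower at day 0. The log2 changes of these 4 genes at day 2 were 3.60 for Eda2r, -0.05 for Cdkn1a (limma adjusted p = 0.132), -0.44 for Pidd1 and 1.98 for Plk2.

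All 10 genes of the Nup107-160 subcomplex, the scaffold of the nuclear pore to which Nup107 belongs, were lower in KO-labelled cells at day 0, where 44.2% of all genes tested were lower. Their median log2 change was -0.885, against -0.059 over all genes. Nup43 (-1.47) and Nup160 (-1.15) fell most, and Sec13, also a coat protein of vesicles, had the highest level, at 125 FPKM. At day 2, 9 of the 10 were lower and 1 higher. Of 18 genes of messenger RNA cleavage and polyadenylation, 14 were lower and 0 higher at day 0 (median -0.221), led by the cleavage stimulation factor genes Cstf1 (-1.30) and Cstf2 (-1.22), and at day 2, 11 were lower and 3 higher. The share of these 18 genes called at day 0 is near that of all genes, 82.4%. By direction it differs, as every call was lower, where 38.3% of all genes were higher and 44.2% lower. Among 22 subunits of the NuA4 and SRCAP chromatin complexes and YEATS proteins, 11 were lower and 3 higher at day 0 (median -0.101), with the ATPase gene Ruvbl2 (-1.52) and the actin-related gene Actl6a (-1.34) the lowest and Morf4l1 (0.59) the highest. The share lower in this list is near the 44.2% of all genes, and the share higher is under the 38.3% of all genes.

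Of 15 metallocarboxypeptidase genes, 7 were tested, and 5 were higher and 0 lower at day 0 in KO-labelled cells (median log2 change 0.624), where 38.3% of all genes tested were higher and 44.2% lower. Cpq was at 42.0 FPKM in KO-labelled and 7.78 in WT cells (log2 change 2.29), and Cpe, an enzyme that trims peptide hormones, had the highest level of the list, at 611 FPKM. Of 27 Slc35 genes, 19 were tested, with 6 higher and 6 lower at day 0 (median 0.0011). Slc35e3 had the highest level of this family, and the next was Slc35a4 at 78.6 FPKM. The UDP-galactose transporter gene Slc35a2 (0.84) and Slc35a5 (0.94) rose, and the GDP-fucose transporter gene Slc35c1 (-0.67) and Slc35d2 (-0.56) fell.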

How the data were processed

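The 12 RNA-seq libraries were analysed, and the 24 MeRIP samples were not analysed here. The authors' deposited table holds FPKM per gene. Per the submitters' processing notes, the build was mm10 and the tools included TopHat2 2.0.12, Bowtie2 2.2.3 and HTSeq 0.6.1, with no role stated. Annotation and strand setting were not given in the sources used here. Columns were matched to samples by title. Read numbers were recovered from the steps of the FPKM values for all 30916 genes above 0 (tolerance 0.001 of a read), and implied lengths were whole in 100.0% of 9827 genes checked.

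Values were analysed as log2(FPKM + 1) for genes averaging 1 FPKM or more, in limma 3.58.1 (R 4.3.3) with a variance trend, 4 group means and 8 residual degrees of freedom. P-values are 2-sided and adjusted by the Benjamini-Hochberg method within a comparison. Ranks count genes above 0 in a library. Symbols, positions and promoters came from RefSeq on GRCm38.p6, the assembly of mm10, and 51633 identifiers had a symbol. The genes named are the 7 members, the named protein-coding genes of the window, the 10 highest genes, the 5 most like Mdm2 and the extremes of each list. The members and lists were chosen with earlier results of these data known. Alternatives were a pseudocount of 0.1, other filters, quantile scaling, TPM, median-of-ratios scaling, no trend, a fit to the compared libraries alone, each library left out, a replicate block, a log2 change of at least 1 and voom on recovered reads.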

Additional observations from a re-analysis of the deposited data

Results flagged for a closer look

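For 5 genes the change from day 0 to day 2 differed between KO-labelled and WT cells, by the interaction term of the limma fit. The change in KO-labelled cells minus that in WT cells, on the log2 scale, was -0.45 for Mdm2, 0.44 for Nup107, -1.0 for Cpm, 0.32 for Yeats4 and -0.85 for Mdm4. The limma adjusted p was 6.66e-08 for Mdm2, 2.97e-04 for Nup107, 0.00181 for Cpm, 0.00307 for Yeats4 and 2.64e-09 for Mdm4. Mdm4 moved in opposite directions, by -0.24 in KO-labelled cells and 0.61 in WT cells. Mdm2 was higher at day 2 in both genotypes, by 0.20 in KO-labelled cells and 0.64 in WT cells. Nup107 was lower at day 2 in both, by -0.38 in KO-labelled cells and -0.82 in WT cells. Such a difference was called for 73.8% of all genes tested, so its presence in these genes is near the background.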

How the results depend on the processing

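Over single genes, 715 alternative values kept their direction and side of the threshold, 56 lost the call, 7 gained it and 15 reversed. Under quantile normalization 3 members were called between genotypes at day 0. With a log2 change of at least 1, the counts were 2 at day 0, 0 at day 2, 0 over time in KO-labelled cells, 1 over time in WT and 0 for the interaction. With each library left out, the counts ranged from 5 to 5 at day 0, 5 to 7 at day 2, 3 to 5 in KO-labelled cells over time, 5 to 6 in WT over time and 5 to 6 for the interaction. Of the reversed values, those under quantile normalization were -0.0081 for Mdm2, 0.0538 for Slc35e3 and -0.0787 for Cpm at day 0, 0.0102 for Cpsf6 at day 2 and -0.0257 for Cpsf6 in KO-labelled cells over time. Median-of-ratios scaling gave 0.0384 for Slc35e3 in KO-labelled cells and 0.0316 for Cpsf6 in WT cells over time, and TPM gave -0.0361 for Cpsf6 in KO-labelled cells. With 1 library left out, Cpm at day 0 ranged from -0.0613 to 0.1617, with -0.0504 and -0.0567 also reversed, Slc35e3 in KO-labelled cells over time from -0.0904 to 0.1028, and Cpsf6 there from -0.0033 to 0.013, with -0.0026 and -0.0018 also reversed. None of these reversed values but that of Mdm2, and that of Cpsf6 at day 2 and in WT over time, belongs to a change called in the report. The causes were not tested. TPM moved the median of all genes by 0.103 at day 0 and quantile normalization by 0.128 in WT over time.

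The replicate numbers mark no stated culture. Libraries that share a number deviated from their group means with an r of -0.055 to 0.087 over genes. The closest library of another group bore the same number for 6 of the 12. With the replicate block 5 members were called at day 0, 7 at day 2, 4 over time in KO-labelled cells, 6 over time in WT and 5 for the interaction. Slc35e3 in WT over time then passed (limma adjusted p = 0.0312) and Cpsf6 did not (limma adjusted p = 0.0536). Depth limits Cpm, whose 90 to 133 reads in WT day 0 give a counting error of 9.9%.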
